A study of Mus musculus with 12 samples.

Results

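The transcripts of 10 alpha and beta tubulin genes were followed in C22 cells: the alpha tubulins Tuba1a, Tuba1b, Tuba1c and Tuba4a and the beta tubulins Tubb2a, Tubb2b, Tubb3, Tubb4b, Tubb5 and Tubb6. They were taken by their symbols from the 23282 gene symbols of the count tables, and they had been selected on their counts in these same 4 groups, so that their differences between groups are described without p-values. All 10 passed the filter on low counts that left 12425 genes for the fit. C22 is a cloned mouse club cell line derived from H-2Kb-tsA58 transgenic mice, whose temperature-sensitive immortalising gene is active under interferon-γ and permissive culture, and all groups were used after differentiation without interferon-γ and after serum starvation. NC cells received the negative control, NC + TGF-β1 cells the negative control and 20 ng/ml TGF-β1 for 24 h, siPdcd5 cells the knockdown of Pdcd5, and siPdcd5 + TGF-β1 cells both. Each group had 3 libraries of 3′ mRNA-seq (QuantSeq), which reads each transcript near its poly(A) end, and library totals ranged from 12809857 to 17714828 counts. The labels do not say whether the libraries of a group came from separate cultures, so errors measure only the spread between these libraries.

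Alpha and beta tubulin form the dimers from which microtubules are built, the hollow filaments that carry transport, the mitotic spindle and, in the airway, the axoneme of motile cilia. Mammals encode each subunit in several genes, called isotypes, whose products are near-identical in the core and differ mostly at the acidic C-terminal tail, where motors and modifying enzymes act. Cells also adjust tubulin mRNA to the free dimer: the nascent N-terminal end of both subunits is recognised at the ribosome by TTC5, and the message is then degraded.

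The start of the coding sequence is the part behind that last step. The first 24 coding bases of 9 members are shown, from the GENCODE transcripts of GRCm38 (the mm10 build named in the submitters' processing notes), with the first 12 in capitals because these 4 codons encode the stretch that TTC5 reads.
Tuba1a: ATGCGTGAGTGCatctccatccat
Tuba1b: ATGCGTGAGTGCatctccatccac
Tuba1c: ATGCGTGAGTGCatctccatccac
Tuba4a: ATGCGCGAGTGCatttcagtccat
Tubb2a: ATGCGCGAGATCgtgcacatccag
Tubb2b: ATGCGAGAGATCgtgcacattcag
Tubb3: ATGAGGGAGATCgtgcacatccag
Tubb4b: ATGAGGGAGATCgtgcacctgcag
Tubb5: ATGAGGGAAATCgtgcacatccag
The 12 capital bases were the same in Tuba1a, Tuba1b and Tuba1c, and Tubb3 and Tubb4b shared another version, while the other members each had their own. All alpha versions shown encode Met-Arg-Glu-Cys and all beta versions Met-Arg-Glu-Ile, so the differences within each family are synonymous. Over the whole coding sequence, Tuba1a was 98.3% identical in nucleotides to Tuba1b and 97.1% to Tuba1c, while Tuba4a was 84.8% identical to Tuba1a. Among the beta tubulins, Tubb2a and Tubb2b were 96.5% identical and the other pairs lay between 80.2% and 86.1%.

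Such likeness matters here because the authors counted unique and multiple alignments, so a read can be counted for each copy it matches. In the last 250 bases of the annotated transcripts, none of the 75-base stretches of Tuba1a was found in another gene on the same strand, against 6.82% of those of Tuba1b and 18.2% of those of Tuba1c. In the last 500 bases the shares were 53.8%, 61.5% and 66.2%, mostly with one another and with pseudogenes, so part of the reads of these 3 genes, which lie together on chromosome 15, cannot be told apart. Tubb2a shared 33.1% of its last 500 bases, nearly all with Tubb2b, and Tubb3, Tubb5 and Tubb6 shared none. Tubb4b shared 10.2% of its last 250 and 19.7% of its last 500 bases, with Gm16165, Tubb4b-ps1 and Tubb4b-ps2, none of them in the count tables.

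A second kind of sharing involved the opposite strand. The last 500 bases of Tuba4a lie entirely within annotated transcripts of Stk16, a kinase gene on the other strand. The end of Tubb4b overlaps Fam166a, also on the other strand, only in part. Fam166a held 26.7% of the 75-base stretches of its last 250 bases and 11% of those of its last 500. Fam166a had 2076 to 4234 counts per library against 2534 to 4766 for Tubb4b, a ratio between 0.764 and 0.903 in the 12 libraries. Stk16 had 0.771 to 1.12 counts for each count of Tuba4a. Whether the counting used strand is not given in the sources used here. Values of Tuba4a and Tubb4b may hold reads of these neighbours, and those of Stk16 and Fam166a may hold reads of the tubulins. How the reads divide was not tested.

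**Figure D1:**
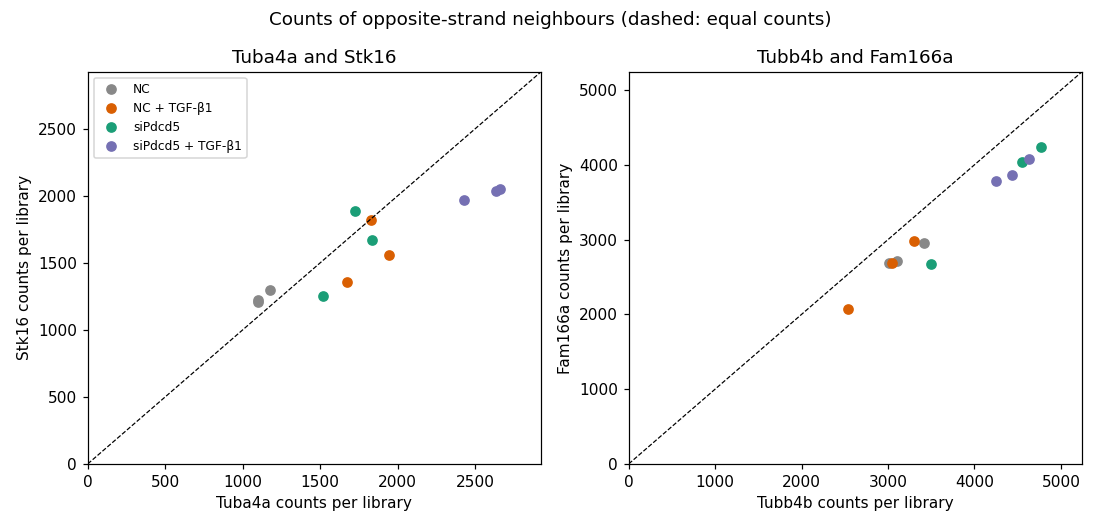
Counts of Stk16 against Tuba4a (left) and of Fam166a against Tubb4b (right), 1 point per library, coloured by group, with the dashed line at equal counts. Fam166a lies between 0.764 and 0.903 of the Tubb4b count in every library, and Stk16 crosses the line of equal counts for Tuba4a.

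The members differed widely in level. In NC cells Tubb5, the main beta tubulin of most dividing cells, had 1920 ± 132 CPM (counts scaled to a library of 1000000, SD, n = 3), Tuba1b had 778 ± 15.9, Tuba1a 496 ± 15.1, Tuba1c 246 ± 14.5 and Tubb4b 240 CPM. Tubb6, Tubb2a and Tuba4a followed between 85.0 and 95.2 CPM, with Tubb6 above both others in every NC library and with overlap between Tubb2a and Tuba4a. Tubb2b had 5.52 CPM and Tubb3, the isotype known from neurons, had 2.29 ± 0.211 CPM. Since 3′ reads do not grow in number with transcript length, these levels are in CPM, and dividing by annotated transcript length changed the order only by exchanging Tuba1c and Tubb4b, with Tubb5 first at 725 CPM per kb and Tubb3 last at 1.23 CPM per kb.

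**Figure D2:**
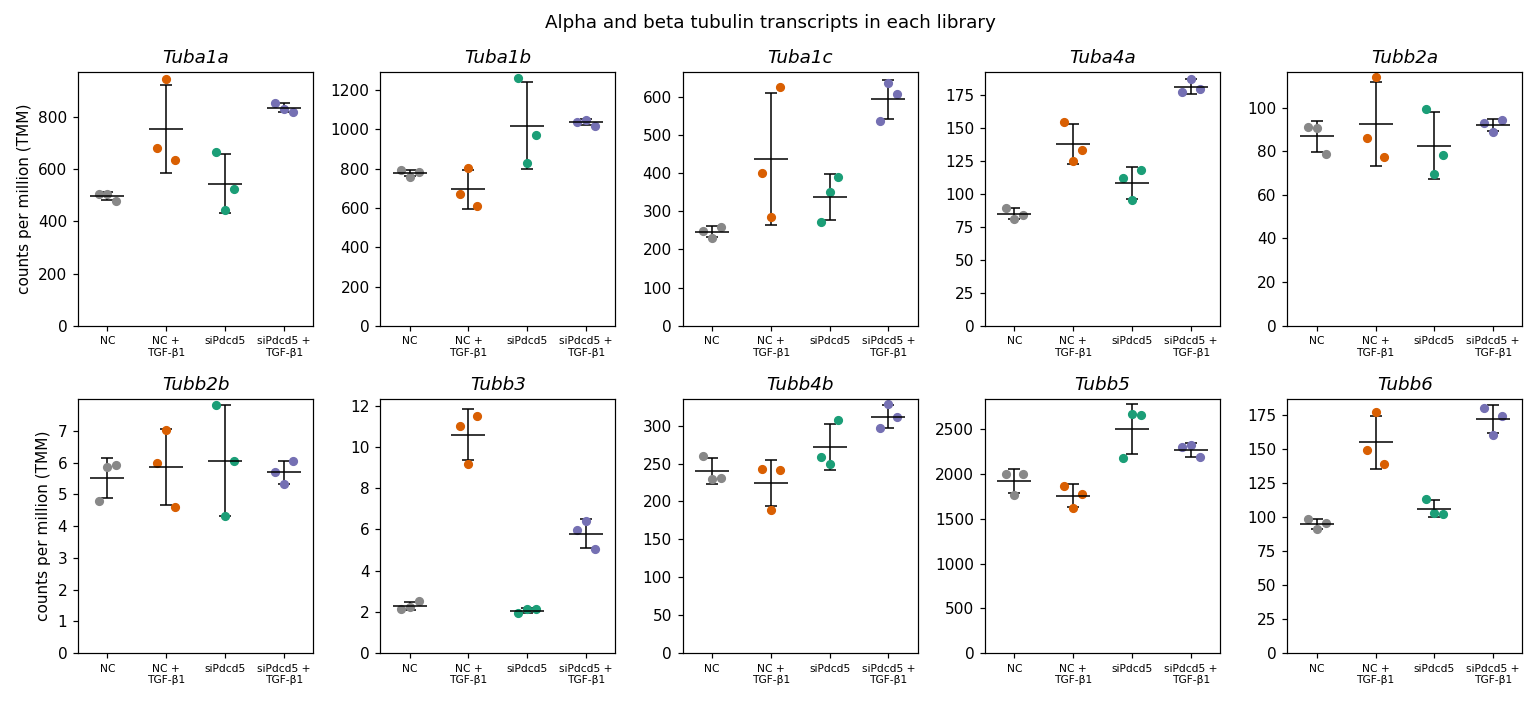
Level of each tubulin in CPM on a linear axis starting at 0, with 1 point per library, the group mean as a horizontal bar and the SD as error bar (n = 3). Tubb3 separates both TGF-β1 groups from both groups without it, while Tubb5 and Tuba1b sit higher in both siPdcd5 groups than in the matching NC groups.

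Pdcd5 itself, the target of the knockdown, had 65.1 to 73.5 CPM in NC cells without and 66.3 to 69.6 CPM with TGF-β1, against 19.9 to 22.1 and 21.8 to 26.3 CPM after knockdown. The club cell label had little support from markers: of 6 markers only Aldh1a1 passed the filter, 2 were at 0 in all 12 libraries, and Scgb1a1, the defining secretory protein, had at most 1 count. The 8 ciliated cell markers together reached 7.01 to 12.6 CPM, and the 6 neuronal markers 1.16 to 12.1 CPM, so these levels of tubulin were measured in cultures with few transcripts of either type. In bulk RNA, fewer cells of a type and less RNA per cell cannot be told apart. NC + TGF-β1 replicate 2 and siPdcd5 replicate 1 stood apart: the pairs of libraries of a group that included either had a chi-square per degree of freedom of 26.8 to 62.7, against 4.4 to 12.1 in the other pairs. In both, 9 of the 10 tubulins deviated from their group mean in the same direction, with Tuba1a, Tuba1b, Tubb2a, Tubb2b and Tubb6 above it and Tuba1c, Tubb3, Tubb4b and Tubb5 below it. Log2 fold changes or calls, sums and shares without these 2 libraries are given for most members where they are described.

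Treatment with TGF-β1, the cytokine that drives fibroblast activation and matrix production in lung fibrosis, was accompanied by higher levels of 5 of the 10 tubulins in NC cells and of the same 5 in siPdcd5 cells. These were Tuba1a, Tuba1c, Tuba4a, Tubb3 and Tubb6. Over all genes tested, 8.57% were higher in NC cells and 8.5% in siPdcd5 cells at an adjusted p under 0.05, and 15.3% and 17.9% were higher without overlap between the libraries. As the members were chosen with these values known, nothing is read from their count.

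Tubb3 had the largest difference. Its level was 2.13, 2.22 and 2.53 CPM in NC cells and 11, 9.19 and 11.5 CPM after TGF-β1. In siPdcd5 cells it was 1.92, 2.15 and 2.12 CPM, and 5.97, 6.4 and 5.04 CPM after TGF-β1. All 6 treated libraries exceeded all 6 untreated ones, and the treated siPdcd5 libraries all lay under the treated NC libraries. The log2 fold change was 2.20 ± 0.19 (SE) in NC cells, a 4.59-fold difference, and 1.48 ± 0.19 in siPdcd5 cells, a 2.79-fold difference. The counts behind Tubb3 were low, 26 to 39 without and 75 to 158 with TGF-β1, and it made up 0.47% of beta tubulin counts on average in NC + TGF-β1 cells and 0.512% in the highest library.

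Tuba4a and Tubb6 differed by nearly the same amount in both cell states. Tuba4a, an alpha tubulin with little of the usual C-terminal tyrosine cycle because its gene encodes no final tyrosine, had 89.4, 81.2 and 84.2 CPM in NC cells and 154, 125 and 133 CPM after TGF-β1. In siPdcd5 cells Tuba4a had 112, 95.2 and 118 CPM without and 177, 187 and 179 CPM with TGF-β1. The groups did not overlap, and log2 fold changes were 0.70 ± 0.10 in NC and 0.74 ± 0.10 in siPdcd5 cells. The neighbour Stk16, whose counts may be partly the same reads, differed by 0.34 and 0.49 in the same comparisons.

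Tubb6, a broadly expressed beta tubulin, had 98.7, 91.5 and 95.4 CPM in NC cells and 149, 177 and 139 CPM after TGF-β1. With knockdown Tubb6 went from 113, 103 and 102 CPM to 180, 160 and 174 CPM. Every treated library lay above every untreated one. The log2 fold changes were 0.70 ± 0.10 and 0.69 ± 0.10.

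Tuba1a, the alpha tubulin prominent in developing neurons, had 504, 505 and 478 CPM in NC cells and 681, 946 and 635 CPM after TGF-β1. In siPdcd5 cells Tuba1a had 666, 443 and 522 CPM, and 852, 831 and 819 CPM after TGF-β1. The ranges did not overlap although NC + TGF-β1 replicate 2 and siPdcd5 replicate 1 were the highest of their groups. The log2 fold changes were 0.60 ± 0.15 and 0.62 ± 0.15, and without these 2 libraries 0.40 and 0.79. The call was lost in NC cells without NC replicate 3 and in siPdcd5 cells without siPdcd5 replicate 2, and in both by quantile normalization with limma-trend.

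Tuba1c, a widely expressed alpha tubulin, varied most within groups. It had 249, 230 and 259 CPM in NC cells and 400, 285 and 624 CPM after TGF-β1, then 272, 351 and 389 CPM in siPdcd5 cells and 537, 636 and 607 CPM after TGF-β1. The lowest treated NC library was close to the untreated range while the highest was beyond every siPdcd5 + TGF-β1 library but one. The log2 fold changes of Tuba1c were 0.83 ± 0.21 and 0.81 ± 0.21, and the call was lost in NC cells without NC replicate 1, NC replicate 2 or NC + TGF-β1 replicate 3, and in siPdcd5 cells without siPdcd5 + TGF-β1 replicate 2 or 3. Without the 2 libraries that stood apart, the log2 fold changes of Tuba1c were 1.05 and 0.68, those of Tuba4a 0.75 and 0.76, those of Tubb6 0.59 and 0.74, and those of Tubb3 2.28 and 1.44.

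The other 5 members were not called in either TGF-β1 comparison in the fit on all 12 libraries. Tuba1b had log2 fold changes of -0.16 ± 0.13 and 0.02 ± 0.13, Tubb5 of -0.13 ± 0.10 and -0.14 ± 0.10, and Tubb4b of -0.10 ± 0.11 and 0.20 ± 0.11. Tubb2a and Tubb2b stayed within 0.16 of 0 on the log2 scale. Quantile normalization with limma-trend called Tubb5 lower in NC cells, at -0.3. Without the 2 libraries that stood apart, Tuba1b was called lower in NC cells. In siPdcd5 cells Tuba1b, Tubb2a and Tubb5 were then called, Tubb2a higher and Tubb5 lower. The difference between the TGF-β1 responses of Tuba1b in the 2 cell states was then also called, at 0.49. For Tuba1b the 95% interval ran from -0.45 to 0.13 in NC cells.

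**Figure D3:**
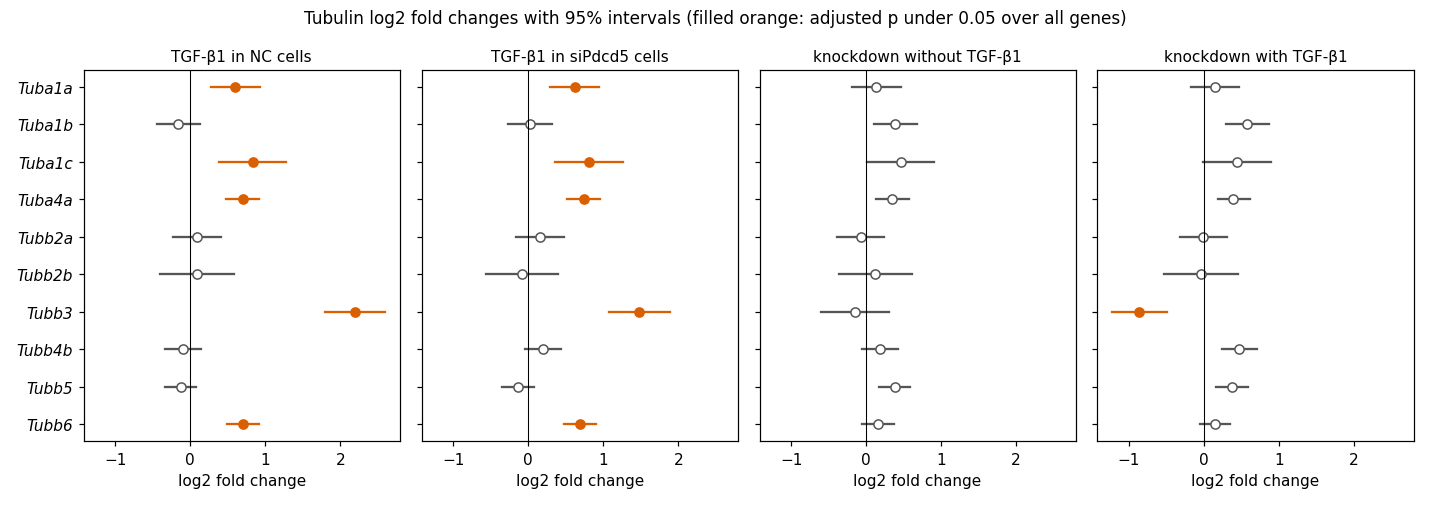
Log2 fold change of each tubulin (x axis) in 4 comparisons, with its 95% interval as a line; filled orange points have an adjusted p under 0.05 over all 12425 genes. The same 5 tubulins are filled in both TGF-β1 panels, none is filled for knockdown without TGF-β1, and Tubb3 alone, at -0.87, is filled for knockdown with it.

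With knockdown of Pdcd5 fewer members were called than with TGF-β1. Tuba1b and Tubb5, not called with TGF-β1 in the fit on all 12 libraries, were on the higher side. Tuba1c, Tuba4a and Tubb6 were higher without overlap both with TGF-β1 and with knockdown alone. Without TGF-β1, none of the 10 members was called by edgeR's quasi-likelihood test, where 3.44% of all genes were, and 5 members, Tuba1b, Tuba1c, Tuba4a, Tubb5 and Tubb6, were higher in siPdcd5 cells without overlap between the groups, as 10.6% of all genes were. DESeq2 called 2 of the 10, and without the 2 libraries that stood apart 3 were called. With TGF-β1, Tubb3 was the 1 member called, where 1.55% of all genes were and 1.22% were lower, and 4 others, Tuba1b, Tuba4a, Tubb4b and Tubb5, were higher without overlap, as 8.84% of all genes were. There DESeq2 called 5 members, limma-trend after quantile normalisation called 4, and the fit on the 6 libraries of these 2 groups alone called 0. Without the 2 libraries that stood apart, 7 were called. The counts are again a description.

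Tubb5 had 2000, 1770 and 2000 CPM in NC and 2180, 2670 and 2660 CPM in siPdcd5 cells. After TGF-β1 Tubb5 had 1870, 1620 and 1780 CPM in NC and 2300, 2330 and 2190 CPM in siPdcd5 cells. All 6 knockdown libraries lay above all 6 NC libraries. The log2 fold changes were 0.38 ± 0.10 without and 0.37 ± 0.10 with TGF-β1, with 95% intervals from 0.17 to 0.59 and from 0.16 to 0.58. Without the 2 libraries that stood apart the values of Tubb5 were 0.46 and 0.32, those of Tuba1c 0.58 and 0.22, those of Tuba4a 0.32 and 0.33, and those of Tubb6 0.10 and 0.25.

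Tuba1b had 791, 760 and 784 CPM in NC and 1260, 829 and 970 CPM in siPdcd5 cells, and 672, 806 and 611 CPM in NC + TGF-β1 against 1040, 1050 and 1020 CPM in siPdcd5 + TGF-β1 cells. It too was higher in all 6 knockdown libraries than in all 6 NC libraries. The log2 fold change was 0.39 ± 0.13 without and 0.57 ± 0.13 with TGF-β1, or 0.20 and 0.70 without the 2 libraries that stood apart. DESeq2 called it with TGF-β1 and not without.

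Tubb4b, the beta tubulin typical of motile cilia and also widely expressed, had 260, 230 and 231 CPM in NC and 258, 250 and 307 CPM in siPdcd5 cells, with overlap. With TGF-β1 Tubb4b had 243, 189 and 241 CPM in NC and 297, 328 and 311 CPM in siPdcd5 cells, without overlap, a log2 fold change of 0.47 ± 0.11, or 0.37 without the 2 libraries that stood apart. Fam166a, whose counts may be partly the same reads, differed by 0.49 in that comparison. Tuba4a was 0.35 ± 0.10 and 0.39 ± 0.10 higher on the log2 scale, against 0.11 and 0.25 for Stk16. Tubb2a, at 69.6 to 114 CPM, and Tubb2b, at 4.3 to 7.82 CPM, overlapped in all 4 comparisons.

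Tubb3 went the other way. After TGF-β1 it was lower in siPdcd5 than in NC cells by a log2 fold change of -0.87 ± 0.17, to 0.549 of the NC level, and without TGF-β1 the groups overlapped, at -0.15 ± 0.21. The difference between its TGF-β1 responses in the 2 cell states was -0.72 ± 0.27 on the log2 scale and was not called, as was no gene of the 12425, a share called of 0%; 638 genes or 5.13% had an unadjusted p under 0.05, and DESeq2 called 15. The knockdown call of Tubb3 was lost without NC + TGF-β1 replicate 1 or 3, without any one of the siPdcd5 + TGF-β1 replicates and with the 6 libraries of the 2 groups alone, and its log2 fold change stayed between -0.96 and -0.77.

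The summed level and makeup of the tubulin pool followed from these values. The 10 members together had 3959 ± 169 CPM in NC cells and 4270 ± 12.6 CPM with TGF-β1. After knockdown they had 4982 ± 167 CPM, and 5503 ± 109 CPM with TGF-β1, 0.40% to 0.548% of all counts. The 4 alpha tubulins summed to 1605 ± 27.9 CPM in NC and 2024 ± 129 CPM in NC + TGF-β1 cells, and the 6 beta tubulins had 2354 ± 142 and 2246 ± 122 CPM. In siPdcd5 cells the sums were 2010 ± 298 and 2644 ± 53.9 CPM for alpha and 2971 ± 271 and 2859 ± 73.1 CPM for beta tubulins. The ratio of alpha to beta counts was 0.683 ± 0.0316 in NC cells and 0.905 ± 0.107 with TGF-β1, then 0.686 ± 0.164 after knockdown and 0.925 ± 0.0223 after both. Without the library that stood apart (n = 2), the sums in NC + TGF-β1 cells averaged 1956 CPM for alpha and 2309 CPM for beta tubulins with a ratio of 0.848, and those in siPdcd5 cells 1859 and 3127 CPM with a ratio of 0.594. The siPdcd5 ratio then lay between 0.554 and 0.634 in the 2 libraries. Reads that match several Tuba1 genes may be counted in more than 1 of them, and how many was not measured.

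Within the alpha tubulins the share of Tuba1b was 48.5 ± 0.309% in NC and 34.3 ± 3.49% in NC + TGF-β1 cells, and 50.4 ± 3.6% and 39.2 ± 0.553% in the siPdcd5 groups. Tuba1b was the first alpha isotype in 3 groups, and in NC + TGF-β1 cells Tuba1a had 37.0 ± 6.13%, within the spread of Tuba1b. Tubb5 kept between 76.6% and 86.1% of beta tubulin counts in every library. Tubb6 made up 4.05 ± 0.112% in NC and 6.95 ± 1.20% in NC + TGF-β1 cells. Without the library that stood apart, the share of Tuba1b averaged 32.9% in NC + TGF-β1 and 48.4% in siPdcd5 cells, that of Tuba1a in NC + TGF-β1 cells 33.7%, and that of Tubb6 there 6.25%.

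**Figure D4:**
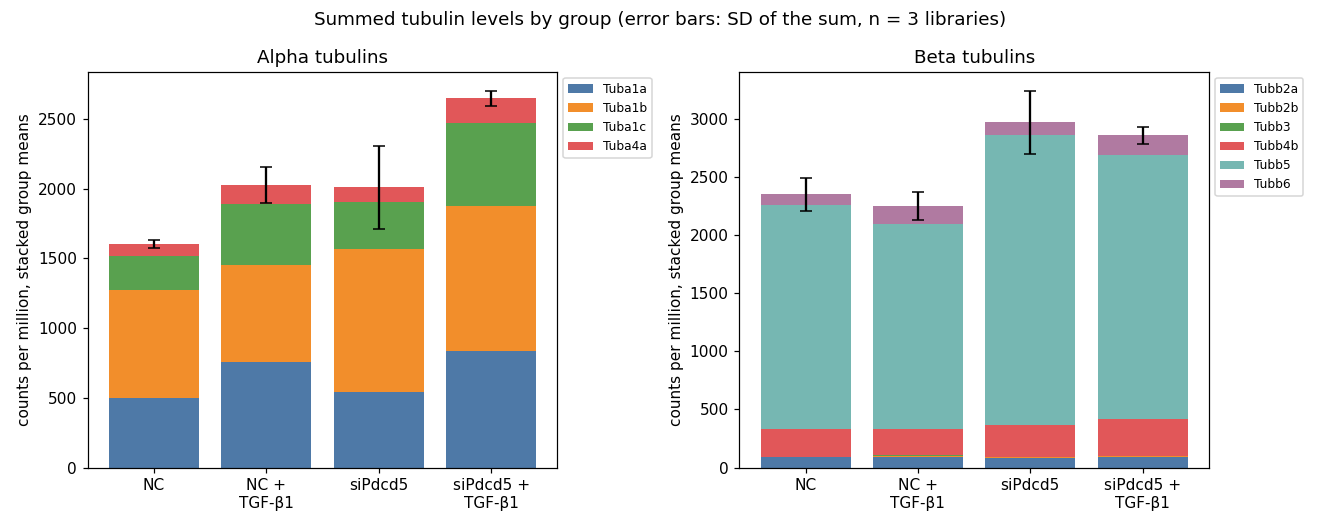
Stacked group means of the alpha (left) and beta (right) tubulins in CPM, starting at 0, with the SD of the sum over 3 libraries as error bar. Alpha tubulins reach 2644 CPM in siPdcd5 + TGF-β1 cells against 1605 in NC cells, and Tubb5 fills most of every beta bar.

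The promoters of 4 members are shown as examples. Tuba1c was called with TGF-β1 and was also higher without overlap with knockdown alone. Tubb5 was higher without overlap with knockdown in both states, and Tubb4b only with knockdown under TGF-β1, and neither was called there. Tubb2a overlapped in all 4 comparisons. They are the 200 bases before the RefSeq start (GRCm38.p6), 5′ to 3′, with CCAAT boxes (CCAAT on either strand) and GC boxes (GGGCGG on either strand) in capitals.
Tuba1c, chr15:99029691-99029890, plus strand: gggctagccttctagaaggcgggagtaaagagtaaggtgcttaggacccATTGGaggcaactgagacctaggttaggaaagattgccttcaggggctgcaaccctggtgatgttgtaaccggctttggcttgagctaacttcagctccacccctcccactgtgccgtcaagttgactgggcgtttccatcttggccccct
Tubb5, chr17:35838302-35838501, minus strand: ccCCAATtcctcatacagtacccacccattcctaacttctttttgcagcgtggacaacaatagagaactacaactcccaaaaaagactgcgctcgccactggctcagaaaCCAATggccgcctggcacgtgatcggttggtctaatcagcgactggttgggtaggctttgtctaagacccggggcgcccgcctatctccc
Tubb4b, chr2:25224703-25224902, minus strand: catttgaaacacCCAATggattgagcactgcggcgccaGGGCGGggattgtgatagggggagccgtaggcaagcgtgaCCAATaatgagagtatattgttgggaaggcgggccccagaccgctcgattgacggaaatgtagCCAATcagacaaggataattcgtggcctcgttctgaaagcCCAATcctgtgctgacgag
Tubb2a, chr13:34078009-34078208, minus strand: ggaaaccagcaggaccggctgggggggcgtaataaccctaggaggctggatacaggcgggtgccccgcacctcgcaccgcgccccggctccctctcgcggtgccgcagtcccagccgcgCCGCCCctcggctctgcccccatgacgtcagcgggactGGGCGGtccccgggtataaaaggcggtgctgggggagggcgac
Of the 8 members with a RefSeq window, 5 held CCAAT and 6 held GGGCGG, against 29.3% and 31.0% of 32851 windows of that length. Tubb4b had 4 CCAAT boxes and Tubb5 had 2. For TGF-β1 the core of the SMAD-binding element, CAGAC, was in 3 of 8 windows, against 35.5% of all, and the AP-1 site TGANTCA was in none of the 8, against 5.48%. Part of these windows is annotated as exon of the same gene in GENCODE: all 200 bases for Tuba1a, 175 for Tuba1b, 129 for Tubb3, 69 for Tuba4a and 5 for Tubb5. The matches counted over the 8 windows thus include matches in exons. A match of such letters is a description of the sequence and not a binding site.

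Around the tubulins, the enzymes and partners of microtubules were read from 9 lists with 101 genes, of which 76 were tested. At an adjusted p under 0.05 by edgeR's quasi-likelihood test, 8 were higher and 5 lower with TGF-β1 in NC cells, 6 and 4 in siPdcd5 cells, 3 and 0 with knockdown alone, and 1 and 0 with knockdown under TGF-β1. Over all genes tested the shares higher and lower were 8.57% and 6.77%, 8.5% and 7.61%, 0.901% and 2.54%, and 0.33% and 1.22% in the same order. The median log2 fold change of these genes lay between -0.01 and 0.03 in the 4 comparisons. Of the microtubule-associated proteins, 6 of 10 tested were higher after TGF-β1 in NC cells and 3 of 10 in siPdcd5 cells. None of the 10 was called for the difference between the TGF-β1 responses in the 2 cell states.

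Map6, which stabilises microtubules against cold, had 21.8 ± 3.89 CPM in NC and 61.4 ± 9.95 in NC + TGF-β1 cells, and 19.1 ± 2.73 and 54.0 ± 1.98 CPM in the siPdcd5 groups. Its log2 fold change was 1.5 ± 0.15 in both states (adjusted p = 8.38e-06 and 9.58e-06). Map7d1, a kinesin cofactor, rose by 0.69 ± 0.08 in NC and by 0.85 ± 0.08 in siPdcd5 cells (adjusted p = 2.95e-05 and 4.66e-06). Tppp3, a protein that promotes tubulin polymerisation, rose by 0.95 ± 0.19 in NC cells (adjusted p = 0.00327) and had 0.34 ± 0.19 in siPdcd5 cells (adjusted p = 0.251). The difference between these responses, -0.61 ± 0.27, was not called (adjusted p = 0.951, edgeR's quasi-likelihood test). Mapre2, an end-binding protein, fell by 0.95 ± 0.12 in NC and by 0.67 ± 0.12 in siPdcd5 cells (adjusted p = 5.89e-05 and 0.00124), and Stmn1, which binds free tubulin dimers, fell by 0.54 ± 0.15 in NC cells (adjusted p = 0.0205) and had -0.42 ± 0.14 in siPdcd5 cells (adjusted p = 0.0648).

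With knockdown alone, Ttll12, of the tubulin tyrosine ligase-like family, rose by 0.41 ± 0.10 (adjusted p = 0.0456), and the microtubule-associated proteins Map2 and Mapt rose by 1.71 ± 0.36 and 1.33 ± 0.27 (adjusted p = 0.0133 and 0.0127), from levels of 0.877 and 3.19 CPM in NC cells. Without NC replicate 3 none of these 3 calls was made, and without NC replicate 1 or siPdcd5 replicate 2 only 1 tubulin-related gene was called. The prefoldin subunit Vbp1 rose by 0.45 ± 0.10 with knockdown under TGF-β1 (adjusted p = 0.036), and that call was lost when any one of 9 of the 12 libraries was left out. Of the 13 folding factors none was called lower in any comparison, and Pfdn6, another prefoldin subunit, rose by 0.31 ± 0.10 with TGF-β1 in NC cells (adjusted p = 0.0455). None of the 9 genes of the gamma-tubulin complex was called in any. Of the tubulins outside the alpha and beta pool, Tubg1, Tube1 and Tubd1 were tested and none was called, with Tubg1 at 61.7 ± 6.44 CPM in NC cells. Ttc5, the factor that reads nascent tubulin, was at 12.2 ± 1.83 CPM in NC cells and had a log2 fold change of -0.49 ± 0.19 with TGF-β1 (adjusted p = 0.102).

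Among 12 proliferation markers, 5 were lower with TGF-β1 in NC cells and 2 in siPdcd5 cells, where 6.77% and 7.61% of all genes were. Birc5, an inhibitor of apoptosis made in mitosis, was among the 5 lower in NC cells, with a fall of 0.55 ± 0.11. With knockdown under TGF-β1 Birc5 rose by 0.49 ± 0.11 (adjusted p = 0.0419, edgeR's quasi-likelihood test). The sum of the markers was 538 to 604 CPM in NC cells and 417 to 468 CPM with TGF-β1, then 593 to 663 CPM after knockdown and 508 to 526 CPM after both. The siPdcd5 sums lay above the matching NC sums with overlap without TGF-β1 and without overlap with it, and their part in the higher Tubb5 and Tuba1b was not tested. The 8 subunits of CCT, the chaperonin that folds tubulin and actin, had sums of 1780 to 1870 CPM in NC and 1760 to 1860 CPM in siPdcd5 libraries. With TGF-β1 the sums were 1900 to 2010 CPM in NC and 2020 to 2110 CPM in siPdcd5 cells, higher with knockdown without overlap. All 8 subunits had positive log2 fold changes in that knockdown comparison, and none was called. Cct3 and Cct6a rose by 0.39 ± 0.08 and 0.45 ± 0.10 with TGF-β1 in siPdcd5 cells (adjusted p = 0.00396 and 0.00533).

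Tuba1b is also of interest as a yardstick, since the study normalised its mouse qRT-PCR to Tuba-1b. Of 12 genes often used as references, none was called with knockdown in either state, and their log2 fold changes had medians of 0.02 and 0.05 without and with TGF-β1, where Tuba1b had 0.39 and 0.57. Tuba1b itself was not called with knockdown in either state, and without the 2 libraries that stood apart its values were 0.20 and 0.70. Gusb, at 0.50, was the 1 reference gene above Tuba1b without TGF-β1, and with TGF-β1 there was none. Dividing by Tuba1b in place of the library size moved the knockdown difference of Postn, a matricellular protein, from -0.75 to -1.33 under TGF-β1, that of Tnc from -0.86 to -1.45, and that of Pdcd5 from -1.49 to -2.08 (log2 differences of group means). With TGF-β1 in NC cells the difference of Postn went from 4.53 to 4.76. Values scaled to the library had a prior count of 2 and those over Tuba1b none. The moves may thus not come from Tuba1b alone. These values are from sequencing counts, and qRT-PCR values were not used here.

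**Figure D5:**
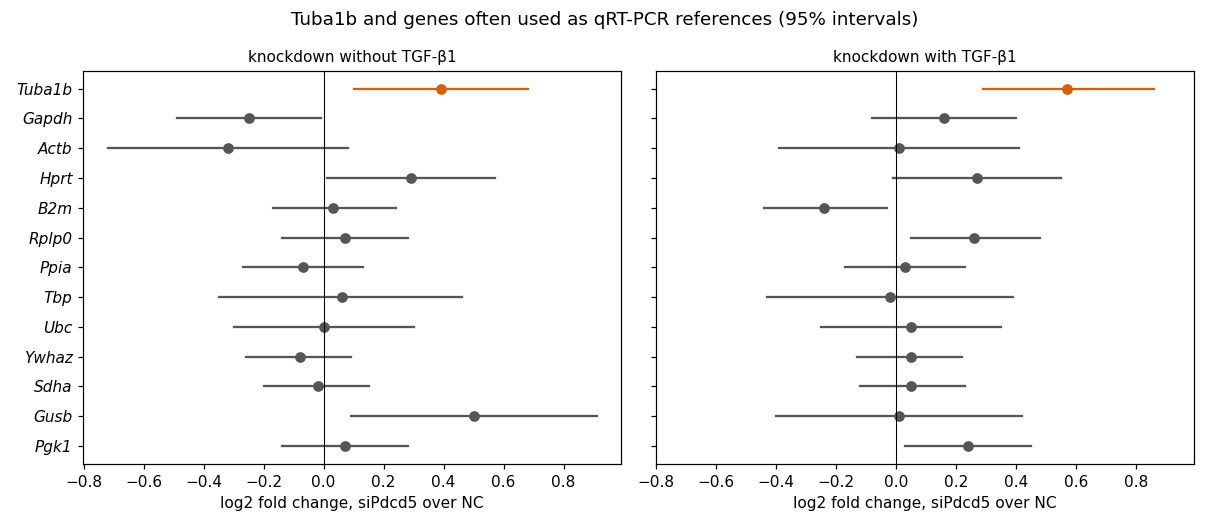
Log2 fold change of siPdcd5 over NC (x axis) for Tuba1b, in orange, and 12 genes often used as qRT-PCR references, in grey, with 95% intervals, without (left) and with TGF-β1 (right). Tuba1b lies at 0.39 and 0.57, and with TGF-β1 no reference gene has a higher point.

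The profiles most like those of Tubb3 and Tuba1c, the 2 members whose group means ranged widest, were sought by the root mean square difference of centred log2 CPM over the 12 libraries among 9118 genes. For Tubb3 these were Gpc1, a cell-surface glypican, at 0.20, and Creb3l1 and Timp3, both at 0.24. For Tuba1c they were Hip1r at 0.17, Pcolce2 at 0.20 and St6galnac4 at 0.21. The nearest tubulin was Tubb6 for Tubb3, at 0.68, and Tuba4a for Tuba1c, at 0.27. As the smallest of 9118 distances tends to be less than the smallest among the few other tubulins, these distances are not compared.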

How the data were processed

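QuantSeq 3′ mRNA-seq libraries of C22 cells were used, 12 in all and 3 in each of 4 groups taken from the labels. The authors aligned single-end reads to mm10 (Bowtie2), tallied both unique and multiple alignments (Bedtools), and deposited raw counts per gene symbol. Quantile normalization in edgeR, which they name, is not in the deposited counts. Annotation and strand of counting are not given in the sources used here.

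Counts were analysed with R 4.3.3, edgeR 4.0.16, limma 3.58.1 and DESeq2 1.42.0. The default filter of edgeR left 12425 of 23282 genes. Libraries were scaled by TMM, a model of the 4 groups was fitted to all 12 libraries with edgeR's quasi-likelihood functions, and a gene was called at an adjusted p (Benjamini-Hochberg) under 0.05. Log2 CPM used a prior count of 2. The fit was tested on simulated counts without any library standing apart, so that test does not cover the libraries that stood apart here. A floor of 3 counts was 0.165 to 0.239 CPM, and covers counting error only.

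The members and lists were chosen with earlier results of these data known, so no p is given for members. Named outside the members were, per list and comparison, up to 3 called genes with the largest changes, and reference genes. One gene under this rule is not reported here. Ttc5, Scgb1a1, Stk16 and Fam166a, and the matricellular genes set against Tuba1b, were named outside this rule, after their values were seen. Replicate numbers come from the labels, and correlations of same-numbered libraries were mixed (-0.324 to 0.166), so they were not treated as pairs. Sequences and gene models came from GENCODE vM21 and RefSeq tables. Alternatives were other scalings, tools and filters, the 6 libraries compared alone, a replicate block, each library left out, and 2 libraries left out together.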

Additional observations from a re-analysis of the deposited data

Results flagged for a closer look

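The prefoldin subunit Vbp1 moved in opposite directions with TGF-β1 in the 2 cell states, without overlap between the libraries in either. Its log2 fold change was -0.18 ± 0.10 (SE) in NC cells and 0.23 ± 0.10 in siPdcd5 cells, and neither was called (adjusted p = 0.276 and 0.132). The interaction term of 0.41 ± 0.14 was not called either (adjusted p = 0.911, edgeR's quasi-likelihood test). No tubulin member moved in opposite directions in this way.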

How the results depend on the processing

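Under 20 alternatives per comparison, and 19 for the interaction, no called member changed sign, and 14 of 990 recomputed member log2 fold changes moved by at least the spread between replicates. Tuba4a, Tubb3 and Tubb6 were called with TGF-β1 in both states under all of them. Scaling by upper-quartile factors, quantile normalization or DESeq2 moved the median of all genes by at most 0.035 (log2). Counts of called members with TGF-β1 were 5 in each state and 4 to 5 with 1 library left out. Knockdown without TGF-β1 called 0 members, 1 by upper-quartile factors, 2 by DESeq2 and 0 to 2 with 1 library left out. Knockdown with TGF-β1 called 1 member, 2 by upper-quartile factors, 4 by quantile normalization with limma-trend, 5 by DESeq2, 3 with no filter, 0 with the replicate block, 0 with the 6 libraries alone and 0 to 4 with 1 library left out. The interaction called 0 members, and 0 with 1 library left out.

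Tubulin-related genes called were 13 (7 to 19 with 1 library left out) and 10 (4 to 16) with TGF-β1, 3 (0 to 3) and 1 (0 to 2) with knockdown, and 0 for the interaction. For knockdown with TGF-β1, DESeq2 called 2, and no filter, the replicate block and the 6 libraries alone called 0. Over all genes the counts were 1906 (1391 to 2554), 2002 (1371 to 2761), 427 (167 to 667), 192 (73 to 322) and 0 (0 to 2) in the order used above. DESeq2 called 714, 459 and 15 in the last 3. For knockdown with TGF-β1 the replicate block left 107 and the 6 libraries alone 44. The block is reported only here because correlations of same-numbered libraries were mixed.

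Leaving out NC + TGF-β1 replicate 2 and siPdcd5 replicate 1 together, an alternative chosen after seeing the data, called 3663, 3139, 1146, 1062 and 199 genes, 25, 20, 8, 9 and 3 tubulin-related genes, and 6, 8, 3, 7 and 1 members. The 7 members with knockdown under TGF-β1 were Tuba1a, Tuba1b, Tuba4a, Tubb4b, Tubb5 and Tubb6, all higher, and Tubb3, lower, and the 1 for the interaction was Tuba1b, at 0.49. The cause was not tested. Depth limited Tubb3 and Tubb2b, which had under 160 counts per library.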

Other observations

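Other alpha and beta tubulin genes were at the edge of detection. Tubb4a had 0 to 13 counts per library, and the remaining alpha and beta tubulins of the files had at most 5, so the isotype shares did not move when these genes were added to the pool. Stmn4, a stathmin, fell by 2.02 ± 0.68 on the log2 scale with TGF-β1 in siPdcd5 cells (adjusted p = 0.0425, edgeR's quasi-likelihood test) on 2 to 25 counts per library with overlap between the groups.

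Vash2, a tubulin detyrosinating enzyme, rose with TGF-β1 by 0.47 ± 0.14 in NC and by 0.51 ± 0.13 in siPdcd5 cells (adjusted p = 0.0286 and 0.0169), and Sirt2, a tubulin deacetylase, fell by 0.37 ± 0.09 and by 0.34 ± 0.09 (adjusted p = 0.0128 and 0.0184). Kif2c, a depolymerising kinesin, fell by 0.54 ± 0.17 in siPdcd5 cells (adjusted p = 0.0381).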
